A study of Bos taurus with 8 samples.

Results

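The miR-29 family was followed through the small RNA libraries of bovine sera and serum exosomes. All miRNAs named bta-miR-29 with a letter from a to e, with or without an arm suffix, were taken as members, which gave 6 of the 534 miRNAs listed: miR-29a, miR-29b, miR-29c, miR-29d-3p, miR-29d-5p and miR-29e. Of the 6 members, 5 had reads in at least 1 library, and miR-29e had none. Blood was drawn from 4 healthy lactating Holstein cows with no treatment. From each cow, 1 library was made from whole serum and 1 from exosomes of that serum, the small vesicles that cells release. This gives 4 sera libraries and 4 exosome libraries paired by cow, and the sera can also contain the miRNAs of exosomes. The volume of serum and the RNA extraction kit differed between the sample types, so the sample type and the extraction cannot be told apart.

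The miR-29 miRNAs are known as repressors of extracellular matrix genes, with collagens, elastin and fibrillin among their targets, and they also target DNA methyltransferases. Their loss is linked to fibrosis of heart, liver and kidney. MiR-29a, miR-29b and miR-29c share their seed, the part of a miRNA that pairs with its targets, and differ at few positions outside it. A mature miRNA is cut from either arm of a hairpin precursor, and the 3p arm is the one for which the family is known. Mammalian miR-29 hairpins lie in tandem and are transcribed together. In the RefSeq gene table of assembly ARS-UCD2.0, 6 bovine miR-29 genes were matched by symbol, and they formed adjacent pairs with no other gene between them. MIR29A was next to MIR29B-1, MIR29B-2 was next to MIR29C, and MIR29E was next to MIR29D. Both MIR29B genes are counted as the same mature miR-29b.

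Values are reads per 1000000 miRNA reads of a library (RPM), so each is a share and not an amount. The sera libraries held 264769 to 590162 miRNA reads and the exosome libraries 60682 to 157710. A count of 0 allows up to 3 reads, which made 5.08 to 11.3 RPM in a sera library and 19.0 to 49.4 RPM in an exosome library. Floors and intervals on reads cover counting error only, since PCR copies are not independent. MiRNA reads made up 5.31% to 10.3% of the sequences analysed in sera and 8.04% to 16.9% in exosomes. The 6 red cell miRNAs miR-486, miR-451, miR-144, miR-16a, miR-16b and miR-92a, none of them at 0, together took 22.9% to 32.5% of miRNA reads per sera library, against 26.9% to 49.1% per exosome library.

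MiR-29a was the most abundant member in every library. For cows 1 to 4, serum gave 6572, 5075, 4838 and 4428 RPM, and exosomes gave 4664, 2729, 3007 and 2999 RPM. The sera value was the higher in each cow, but the exosomes of cow 1 lay above the serum of cow 4, so the sample types overlapped. Cow 1 was the highest of the cows in both sample types. The mean was 5228 ± 935 RPM over the sera and 3350 ± 886 RPM over the exosomes (SD, n = 4), resting on 1281 to 2995 reads and 283 to 473 reads. The coefficient of variation between cows was 17.9% in sera and 26.4% in exosomes, against 2.26% and 5.35% from counting alone. Each cow gave 1 library of each kind, so spread between cows and spread from library preparation cannot be told apart. Among all miRNAs listed, miR-29a ranked 31 to 40 in sera and 35 to 41 in exosomes.

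MiR-29c, the product of MIR29C, was the second member in every library. Its values were 1557, 1127, 1409 and 1059 RPM in sera and 1220, 686, 918 and 640 RPM in exosomes. Again each serum exceeded the exosomes of the same cow, and the exosomes of cow 1 lay above the sera of cows 2 and 4. The means were 1288 ± 235 RPM and 866 ± 265 RPM (SD, n = 4), from 373 to 665 reads in sera and 74 to 101 reads in exosomes. MiR-29a exceeded miR-29c by 3.28-fold to 4.68-fold over the 8 libraries, and miR-29c exceeded miR-29b by 10.4-fold to 29.3-fold. These are read shares, and the efficiency with which each miRNA entered the libraries was not measured.

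MiR-29b, which has a gene in each of its clusters with miR-29a and miR-29c, was rare beside both of its neighbours. It was at 112, 86.4, 136 and 83.0 RPM in sera, from 30 to 51 reads. In exosomes it was at 82.4, 23.4, 78.1 and 25.4 RPM, from 3 to 8 reads. Every serum lay above every exosome library, but the lowest serum, at 83.0 RPM, was next to the highest exosome library, at 82.4 RPM. The 95% exact Poisson intervals of serum and exosomes overlapped in each cow. In cow 1, where the values lay closest, they were 75.8 to 160.3 RPM and 26.8 to 192.3 RPM. Pooled over the exosome libraries, 20 reads of miR-29b were found (95% exact Poisson interval 12.2 to 30.9), against 44.9 at the sera level. The means were 104.4 ± 24.8 RPM and 52.3 ± 32.3 RPM (SD, n = 4).

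MiR-29d-3p was found in all 8 libraries from few reads. The sera held 33.7, 16.9, 18.9 and 9.0 RPM, from 4 to 10 reads. The exosomes of the same cows held 82.4, 7.8, 19.5 and 6.3 RPM, from 5, 1, 2 and 1 reads. Cow 1 was the highest in both sample types, and its exosome library, the shallowest of all, held miR-29d-3p and miR-29b at the same 5 reads. In the other 7 libraries miR-29b was the more abundant. The mean of miR-29d-3p was 19.6 ± 10.3 RPM over the sera and 29.0 ± 36.1 RPM over the exosomes (SD, n = 4), and the exosome mean rests on cow 1.

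**Figure D1:**
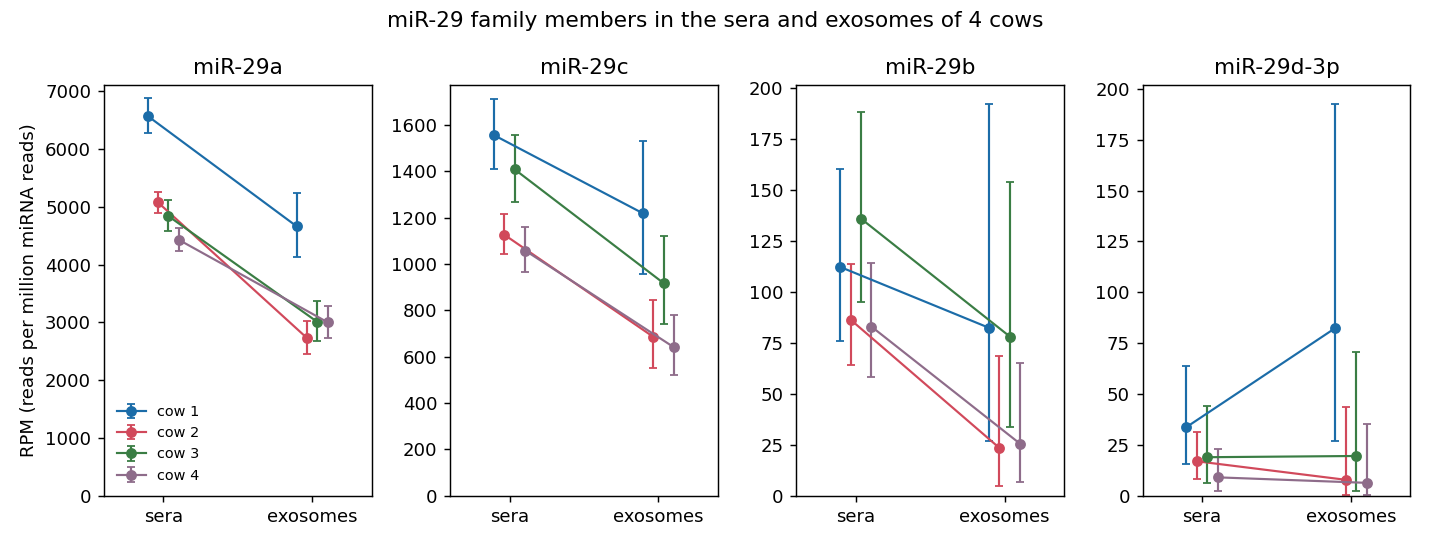
Levels of miR-29a, miR-29c, miR-29b and miR-29d-3p in RPM on linear axes that differ between panels. Points are libraries, lines join the serum and exosomes of a cow, and bars are 95% exact Poisson intervals for counting error. The lines of miR-29a, miR-29c and miR-29b go down from sera to exosomes in each of the 4 cows, while those of miR-29d-3p go both ways within wide bars.

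The 5p arm of miR-29d was listed in sera and not in exosomes. Its sera values were 3.7, 8.5, 11.3 and 0 RPM, from 1, 5, 3 and 0 reads, and the exosomes of each cow held 0 reads. At the sera level, the 449083 reads of all exosome libraries would hold 2.47 reads of it, under the 3 that a count of 0 allows. A lower level of miR-29d-5p in exosomes was therefore not detectable at this depth. Over the pooled exosomes 0 reads allow up to 6.68 RPM, beside a sera mean of 5.9 RPM. Of the reads of both arms of miR-29d, the 5p arm made up 9 of 37 in sera (24.3%, 95% exact binomial interval 11.8% to 41.2%) and 0 of 9 in exosomes (interval 0 to 33.6%). The intervals of the sample types overlapped.

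MiR-29e, the product of the gene next to MIR29D, had 0 reads in each of the 8 libraries. Over the 1567954 reads of the pooled sera this allows up to 1.91 RPM, and over the pooled exosomes up to 6.68 RPM.

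Summed over the members, the family took 0.828%, 0.631%, 0.641% and 0.558% of the miRNA reads of the sera. It took 0.605%, 0.345%, 0.402% and 0.367% of those of the exosomes, the lower value in each cow. Means over cows were 0.665% ± 0.115 and 0.430% ± 0.119 (SD, n = 4), a ratio of 1.55. Within cows the total was 1.37 to 1.83 times higher in sera. Without the exosome library of cow 1 the ratio of the means was 1.79. MiR-29a alone held 78.6% ± 2.19 of the family total in sera and 78.2% ± 2.96 in exosomes, and miR-29c 19.4% ± 1.78 and 20.1% ± 2.20 (SD, n = 4). These shares differed between sample types by less than the spread between cows.

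The ratio of the main members ran over the same range in serum and exosomes. Per 100 reads of miR-29a, serum held 23.7, 22.2, 29.1 and 23.9 reads of miR-29c for cows 1 to 4, and exosomes 26.1, 25.1, 30.5 and 21.4. Cow 3 had the highest ratio in both sample types, and the ratio was higher in exosomes in 3 of 4 cows. Such a ratio within a library does not depend on the denominator of RPM. MiR-29b stood at 1.70 to 2.81 reads per 100 reads of miR-29a in sera and 0.847 to 2.60 in exosomes. Cow 3 was again the highest in both, and the exosomes of cows 2 and 4 were the lowest. Per 100 reads of miR-29c there were 0.850 to 2.16 reads of miR-29d-3p in sera and 0.984 to 6.76 in exosomes, the highest in cow 1 in both sample types. How reads that match more than one member were divided is not given in the sources used here, so the split between near-identical members is uncertain, and most so for the rare ones.

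**Figure D2:**
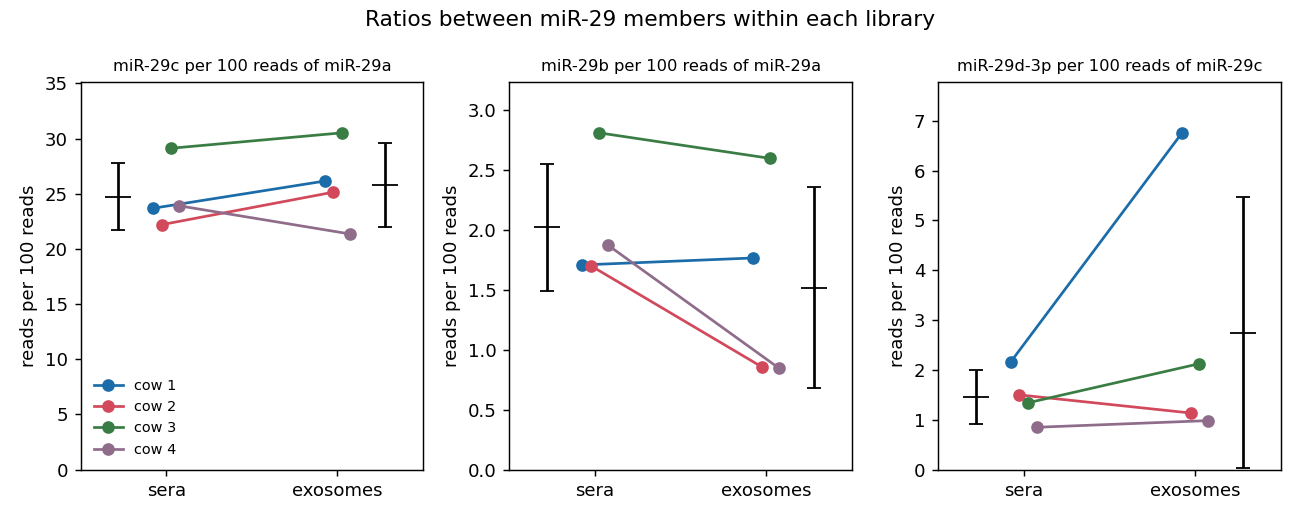
Reads of one member per 100 reads of another within each library, for miR-29c over miR-29a, miR-29b over miR-29a and miR-29d-3p over miR-29c. Coloured points are libraries joined by cow, and black bars are the mean ± SD of 4 cows. The ratio of miR-29c to miR-29a lies between 21.4 and 30.5 in all libraries, while that of miR-29d-3p to miR-29c reaches 6.76 in the exosomes of cow 1.

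No member was past the thresholds for a difference between sera and exosomes. Limma was run on log2(RPM + 1), and a call needed a fold change beyond 1 in either direction on the log2 scale (log2 FC) with a false discovery rate (FDR) under 0.05. The adjustment, by Benjamini-Hochberg, was over the 365 miRNAs that passed 1 RPM in at least 2 cows of a sample type. Over these, 4.38% were past both thresholds, 16 miRNAs in all, and 0 of the 5 members tested were. An unadjusted p under 0.05 was reached by 25.8% of all miRNAs tested and by 3 members, miR-29a, miR-29c and miR-29d-5p. MiR-29d-5p passed the filter only through sera and had no exosome read, so nothing is read from its p. On whole reads recovered from the RPM, edgeR and DESeq2 also called 0 members. An unadjusted p under 0.05 was reached by 1 member by edgeR with TMM (trimmed-mean scaling), miR-29a, against 15.1% of miRNAs. By edgeR with library totals it was reached by 3 members, miR-29a, miR-29b and miR-29c, against 20% of miRNAs. By DESeq2 it was reached by 0 members, against 14.5% of miRNAs. The log2 FC of rare miRNAs depends on the pseudocount. With 0.1, 1 and 10 RPM added, that of miR-29b was 1.21, 1.19 and 1.01, and that of miR-29a 0.66 each time. The median over all 365 miRNAs was 0.72, 0.57 and 0.26, against 0.33 by edgeR with library totals.

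MiR-29a had a log2 FC of 0.66, or 1.58-fold higher in sera (standard error 0.21, 95% confidence interval 0.20 to 1.12, limma FDR = 0.0882). MiR-29c had nearly the same log2 FC of 0.60 (standard error 0.24, interval 0.08 to 1.13, limma FDR = 0.149). The log2 difference within cows was 0.49, 0.89, 0.69 and 0.56 for miR-29a and 0.35, 0.71, 0.62 and 0.72 for miR-29c, all higher in sera. A higher value in sera in 4 of 4 cows was common, and was found for 30.7% of the miRNAs tested. In exact permutation tests over all 70 assignments of the libraries, the two-sided p was 0.0571 for miR-29a and 0.0857 for miR-29c (0.311 and 0.348 after adjustment over the 365 miRNAs). Exact sign-flip tests within cows gave for each the smallest p that 4 pairs allow, which is above 0.05. Without the exosome library of cow 1, the log2 FC of miR-29a was 0.83 and its limma FDR was under 0.05, at 0.0162. With any other library, or both libraries of any cow, left out, its limma FDR was 0.0538 to 0.269.

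When the cow entered as a replicate block, the FDR of miR-29a was 2.64e-07 and that of miR-29c 0.000233 by limma. EdgeR's quasi-likelihood fit to recovered reads, also with the block, gave 0.00305 and 0.0448. The FC of neither member reached the limit. With RPM taken over all sequences analysed, the block fit by limma gave an FDR of 0.97 for miR-29a and 0.937 for miR-29c, with both log2 FC values under 0. MiR-29b had an FDR of 0.0567 with the block by limma on RPM of miRNA reads and 0.0731 by edgeR. In the block fits on miRNA reads 26.3% of the miRNAs tested had an FDR under 0.05 by limma and 21.6% by edgeR, against 6.85% by limma without the block. The FDR and the interval of a block fit with 4 cows rest mostly on variance pooled over miRNAs. In the limma block fit on RPM of miRNA reads they rest on it almost wholly, and hardly on a member's own spread between cows.

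MiR-29b was higher in sera in 4 of 4 cows with a log2 FC of 1.19, beyond the limit on fold change, but its error was wide (standard error 0.56, 95% interval -0.01 to 2.38, limma FDR = 0.196). The exact permutation test gave p = 0.0286, the smallest that 4 against 4 libraries allow, and 0.201 after adjustment over the 365 miRNAs. That test does not use the pairing by cow, and the exact sign-flip test within cows again gave the smallest p that 4 pairs allow, above 0.05. The log2 FC of miR-29b was under the limit by edgeR with TMM (0.89), by DESeq2 (0.80) and on TMM-scaled RPM (0.99), and was 1.09 by edgeR with library totals. Groups that do not overlap, with sera the higher, were found for 11.8% of the miRNAs tested. MiR-29d-3p was higher in sera in 2 of 4 cows, with a log2 FC of 0.04 and a 95% interval of -1.94 to 2.02 (limma FDR = 0.985), while its mean in RPM was higher in exosomes. For miR-29d-5p no fold or test is given, because the exosomes were at 0 and the sera level was under their floor.

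The sign of the log2 FC of miR-29a and miR-29c depends on what the reads are divided by. The 128 miRNAs with 10 or more reads in all 8 libraries had a median log2 FC of 0.31 themselves, and of 0.11 with TMM scaling of the RPM. Relative to the median of their own cow, miR-29a was higher in sera by 0.27, 0.47, 0.17 and 0.37 on the log2 scale in cows 1 to 4, and miR-29c by 0.13, 0.29, 0.10 and 0.53. With RPM taken over all sequences analysed, miR-29a was at 393.0, 521.2, 256.9 and 261.7 in sera. On that scale the exosomes were at 375.0, 308.1, 270.4 and 508.1. The serum was the higher in cows 1 and 2, and the exosomes in cows 3 and 4. The log2 FC was then -0.05 for miR-29a (limma FDR = 0.976) and -0.11 for miR-29c (limma FDR = 0.93). That of miR-29b was 0.41 (limma FDR = 0.713). The 128 miRNAs had a median log2 FC of -0.39 on that scale, below each of these values. The family total had a ratio of 0.976 on that scale. The share of miRNA reads among all sequences moved with the sample type.

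**Figure D3:**
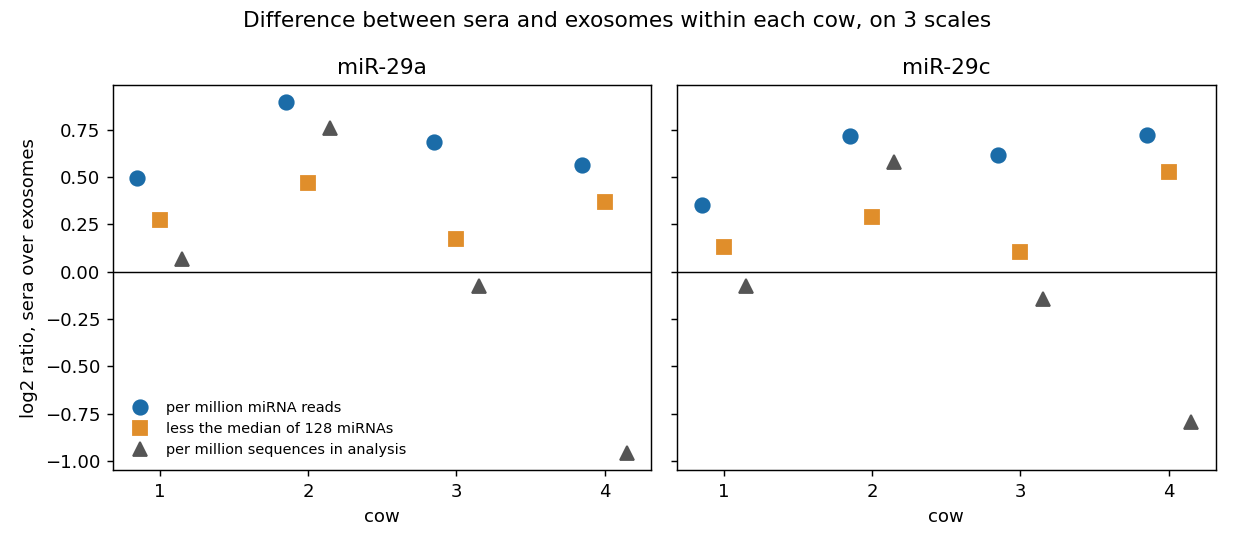
Log2 ratio of serum to exosomes within each cow for miR-29a and miR-29c on 3 scales. Circles are RPM of miRNA reads, squares are the same less the median of the 128 well-read miRNAs, and triangles are RPM over all sequences analysed. Circles and squares lie above 0 in all 4 cows, and triangles lie on both sides of 0.

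MiR-29a was then compared with the 127 others among these well-read miRNAs, by the root mean square difference of the centred log2(RPM + 1) over the 8 libraries. The median difference was 0.46. MiR-29c was the third closest at 0.17. The closest outside the family were miR-107 at 0.14 and miR-103 at 0.15, a pair of near-identical miRNAs, followed by miR-125b at 0.21 and miR-128 at 0.22. Sera held 11001 ± 1416 RPM of miR-107 and exosomes 6503 ± 1221 RPM (SD, n = 4), with a log2 FC of 0.77 and a limma FDR of 0.0252. For miR-128 the levels were 2861 ± 353 RPM and 1570 ± 207 RPM (SD, n = 4), with a log2 FC of 0.87 and a limma FDR of 0.0115. The log2 FC was 0.75 for miR-103 (limma FDR = 0.0337) and 0.85 for miR-125b (limma FDR = 0.0882). The fold changes of all 4 were larger than that of miR-29a and under the limit. The 4 were picked for a like profile over both sample types, so a like fold change follows from the choice.

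Of the other miRNAs studied in matrix deposition and fibrosis, 1 was past both thresholds in each direction, against 3.01% of all miRNAs tested called higher in sera and 1.37% in exosomes. The list held the arms of miR-21 and miR-199a, and miR-192, miR-194, miR-199b, miR-214, miR-200a, miR-200b, miR-200c, miR-133a and miR-133b, 13 miRNAs in all. MiR-200a, an epithelial miRNA, was higher in sera with 563 ± 145.95 RPM against 247 ± 89.3 RPM in exosomes (SD, n = 4; log2 FC of 1.22, limma FDR = 0.0337). MiR-21-3p, the minor arm of the profibrotic miR-21, was higher in exosomes with 819 ± 378 RPM against 282 ± 87.8 RPM in sera (SD, n = 4; log2 FC of -1.48, limma FDR = 0.0139). The other 11 were not past both thresholds. The median log2 FC of the list was 0.73, beside 0.57 over all 365 miRNAs tested and 0.31 over the 128 well-read ones.

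Among miRNAs of blood cells, 2 of the 6 red cell miRNAs were past both thresholds and higher in sera, with a log2 FC of 1.10 for miR-144 (limma FDR = 0.0149) and 1.44 for miR-16a (limma FDR = 0.00139), against the same 3.01% of all miRNAs tested. The other 4 were not past both thresholds, with a log2 FC of 0.65 for miR-16b, -0.0035 for miR-451, -0.59 for miR-92a and -0.73 for miR-486, the most abundant of the 6. The median log2 FC of the 6 was 0.32, beside 0.57 over all miRNAs tested and 0.31 over the 128 well-read ones. Of 8 platelet and leukocyte miRNAs, the arms of miR-126 and miR-142 and miR-223, miR-150, miR-146a and miR-155, 0 were past both thresholds, none was at 0 in all libraries, and their median log2 FC was 0.50. Their summed level was 4.77% to 5.30% of miRNA reads per sera library, against 4.18% to 5.34% per exosome library. MiR-122, which marks hepatocytes, was at most 0.0108% in sera and 0.00488% in exosomes. The part of blood cell miRNAs in the miR-29 values was not tested.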

How the data were processed

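Small RNA was sequenced from the serum and the serum exosomes of 4 cows. The authors filtered reads with CASAVA (version 1.8 per the labels), trimmed them and aligned each library to bovine miRBase entries with sRNAbench, and deposited RPM. A library's values are multiples of a single step, from which whole reads were recovered; 100% were whole within 0.051 RPM. Sample type and replicate number come from the labels, and the study names the same cattle as the source of both sample types. Libraries of the same number were taken as the same cow. Same-numbered libraries deviated together (r from 0.740 to 0.860 across 128 miRNAs, and -0.244 on average between cows). Deviations were from the mean of each sample type, so the negative average follows from the centring and is no separate result.

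The members, lists and tests were chosen with earlier results of these data known. Limma with a trend was the main fit, because RPM is not a count. It had no block because the study states none, so its FDR and intervals leave out the pairing by cow. The permutation tests leave it out too. Limma, edgeR and DESeq2 were run on simulated data. The simulated counts had no effect of the cow, so they cannot decide between fits with and without the block. Named miRNAs were all members, the 4 outside the family closest to miR-29a, and the called miRNAs of each list. Alternatives were a replicate block, recovered reads in edgeR and DESeq2, other pseudocounts, filters and denominators, and each library or cow left out. Numbers of sequences analysed came from the study's supplement. Python 3.11.15, R 4.3.3, DESeq2 1.42.0, edgeR 4.0.16 and limma 3.58.1 were used.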

Additional observations from a re-analysis of the deposited data

Results flagged for a closer look

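The miR-29a value of the exosomes of cow 1, 4664 RPM, stood apart from the other 3 exosome libraries, which lay between 2729 and 3007 RPM. Its gap to the nearest of them was 0.856 of the range of the group, above the Dixon limit for 4 samples. Chance alone passes this limit in about 1 in 20 groups, and 11 groups of values with any spread were examined. The library rests on 283 reads of miR-29a (95% exact Poisson interval 4136 to 5240 RPM) and is the shallowest of the 8. The serum of the same cow was also the highest of the sera, at 6572 RPM.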

How the results depend on the processing

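No member with reads in exosomes was past both thresholds under any alternative run. Leaving out 1 library or cow gave 0 to 1 members, and the 1 was miR-29d-5p without the serum of cow 4. That library was the only serum with no read of it, all exosomes were at 0, and nothing is read from this call. The number with an FDR under 0.05 was 0 in the fit as reported, 2 (miR-29a and miR-29c) with the replicate block by limma, by edgeR and by limma on TMM-scaled RPM, 1 (miR-29a) when limited to miRNAs with 10 or more reads throughout, and 0 to 1 with a library or cow left out. With all sequences as the denominator the log2 FC was -0.051 for miR-29a, -0.11 for miR-29c and -0.42 for miR-29d-3p, with or without the block, and the ratio of family totals was 0.976, against 1.42 to 1.79 with a library left out. The log2 FC of miR-29d-3p, which rests on few reads, was also under 0 by edgeR (-0.41 with TMM, -0.37 with the block, -0.26 with library totals), by DESeq2 (-0.60), with a pseudocount of 10 (-0.073) and on TMM-scaled RPM (-0.14, and the same with the block), and it ran from -0.40 to 0.77 with a library or cow left out. Over all miRNAs, 11 were called higher in sera and 5 in exosomes. The numbers were 29 and 6 with the block, 6 and 8 by edgeR with TMM, 10 and 5 by edgeR with library totals, 13 and 13 by edgeR with TMM and the block, 3 and 13 by DESeq2, 0 and 6 over all sequences, 1 and 7 with the block added, 6 and 6 on TMM-scaled RPM, 16 and 8 with the block added, and 2 to 18 and 3 to 5 with a library or cow left out. The TMM-scaled fits and the block over all sequences were chosen after seeing the data. Other changes were not tested for their cause. At the exosome depth, members with under 10 reads could not be compared closely.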
